A study of Mus musculus with 4 samples.

Results

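The 54 genes described here copy DNA in S phase or supply the deoxynucleotides for it. They were taken through the probe sets that carry a member gene as their only symbol, and each gene was represented by its brightest probe set by mean signal over all 4 arrays. By that rule 50 of the 54 members were measured, among 12393 genes with a probe set of their own. Gins2, Gins3, Chaf1a and E2f2 had none and were not analysed here. The samples were dendritic cells (DC) grown from bone marrow of C57BL/6 mice, and RNA came from CD11c cells. There were 2 arrays of NKT-modulated DC, which had been exposed to natural killer T (NKT) cells, and 2 arrays of immature DC. The labels give neither the age of the mice nor how the NKT cells were applied. No label says that arrays of a group came from separate cultures, so the p-values reflect how much these particular arrays differ, and that can be technical.

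Replication starts when the origin recognition complex, with CDC6 and CDT1, loads the MCM2 to MCM7 helicase onto origins in G1. The kinase CDC7 with its partner DBF4, and the factors CDC45 and GINS, then turn the loaded helicase into a moving fork, where primase and the DNA polymerases work behind it with the PCNA clamp, its loader RFC and the single-strand binder RPA. Ribonucleotide reductase, thymidylate synthase and the salvage kinases make the deoxynucleotides, and many of these genes are driven by E2F transcription factors as a cell passes from G1 into S phase. Bone marrow cultures contain precursors that divide before they differentiate, and mature DC divide little.

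Genes of DNA replication fell in NKT-modulated DC. Of 50 measured members, 21 (42.0%) had lower signal than in immature DC by limma at an adjusted p under 0.05 and 0 had higher signal, against a background of 6.9% of all genes lower and 5.99% higher. The median log2 change, NKT-modulated minus immature, was -0.64 over the members and -0.04 over all genes. The fall was steepest for Tk1, Prim1, Gmnn and Mcm7, at -1.56 ± 0.23, -1.39 ± 0.14, -1.37 ± 0.19 and -1.32 ± 0.09 (SE from 2 arrays in each group, here and below). The largest positive change, 0.35 ± 0.20 for Rfc3, was not called (adjusted p = 0.350).

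Signs and order of the arrays went the same way. The change was negative for 47 members and positive for 3, against 6827 and 5566 of all 12393 genes. After normalization both NKT-modulated arrays lay below both immature arrays for 43 of the 50 members, against 32.5% of all genes, and above them for 1 member, against 23.8% of all genes. At an unadjusted p under 0.05, 34 members were lower and 0 higher, against 16.6% and 11.5% of all genes. Counts of each list below can be read beside these shares. For calls by limma the shares of all genes were 6.9% lower and 5.99% higher. The middle of the member distribution, from the lower to the upper quartile, ran from -0.89 to -0.33, and that of all genes from -0.30 to 0.21. The count of 21 rested on all 4 arrays. It was smaller with any array left out, and so was the number of all genes called lower. The members' median change was -0.66 and -0.63 without NKT-modulated replicate 1 and 2, and -0.65 and -0.63 without immature replicate 1 and 2. The count was 8 without the intensity trend of the variance, where 2.19% of all genes were lower.

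**Figure D1:**
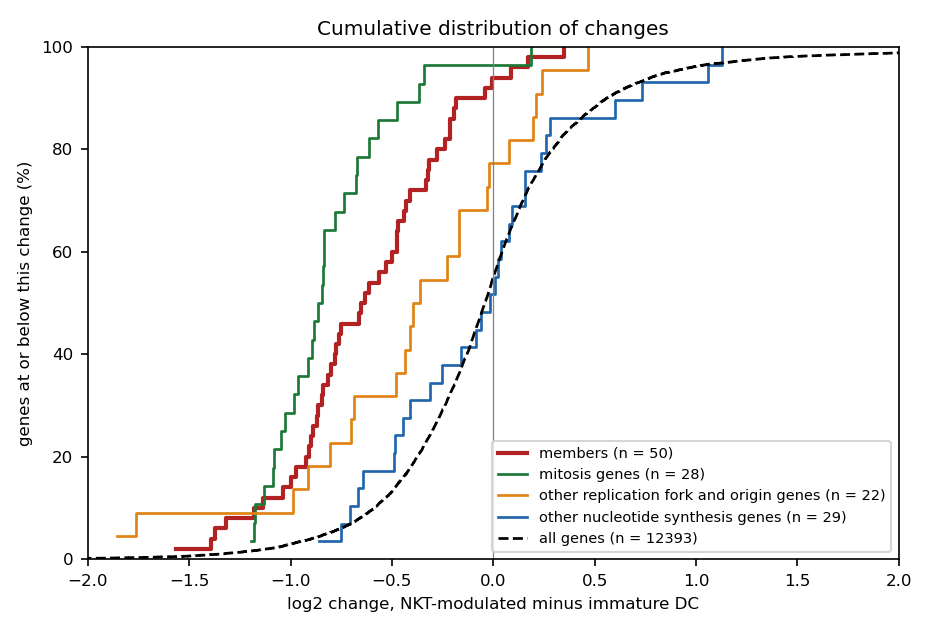
Cumulative share of genes (vertical axis) with a log2 change at or below the value on the horizontal axis, NKT-modulated DC minus immature DC, for the 50 members, 28 mitosis genes, 22 other fork and origin genes, 29 other nucleotide synthesis genes and all 12393 genes. The curve of the members is shifted to negative values, with a median of -0.64 against -0.04 for all genes, and the curve of the other nucleotide synthesis genes has a median of -0.02.

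All values are deposited intensities, linear signals of 1 probe set on 1 array, unless a log2 change is named. A change was computed after adding 16 to the signal, taking log2 and normalizing between arrays by quantiles, so it understates the change of dim genes. Probe sets bind with different strength, so a higher signal of one gene than of another does not show more of its RNA, and sums over a list are weighted to its bright probe sets. The median log2 signal of an array was 7.24 and 7.18 in NKT-modulated DC, against 7.34 and 7.44 in immature DC. The ratio of 3′ to 5′ Gapdh probe sets, a sign of RNA length, was 1.87 and 1.98 in NKT-modulated DC, against 1.76 and 1.44 in immature DC. The same ratio for Actb was 1.09 and 1.18 in NKT-modulated DC, against 1.18 and 1.16 in immature DC. The part of RNA length in the results was not tested.

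The labelled cell type was checked against lists of cell type markers. Itgax, which encodes CD11c, had signals of 5253 and 4643 in NKT-modulated DC, against 5442 and 5537 in immature DC (adjusted p = 0.204). Of 11 measured DC markers 0 fell and 1 rose, Cd86, by limma, with 2 lower and 2 higher at an unadjusted p under 0.05. Their summed signal was 70530 and 63504 in NKT-modulated DC, against 64039 and 61849 in immature DC. T and NKT cell markers moved with the groups: 10 of 15 measured rose and 0 fell, none of them lower at an unadjusted p under 0.05, with a summed signal of 11625 and 9681 in NKT-modulated DC, against 4286 and 4865 in immature DC. Of these, Cd3g, part of the T cell receptor complex, had 1401 and 1046 in NKT-modulated DC, against 19.0 and 15.4 in immature DC. Among 10 markers of granulocyte and monocyte precursors 2 fell, Kit and Cd34, and 1 rose, Gfi1. Cd34, a marker of early blood precursors, had 84.0 and 68.9 in NKT-modulated DC, against 461 and 416 in immature DC. Gfi1 had 357 and 360 in NKT-modulated DC, against 32.5 and 34.1 in immature DC, and the other 7 were not called. Summed over the precursor list the signal was 1514 and 1379 in NKT-modulated DC, against 2010 and 2237 in immature DC. Of 6 B cell markers 2 rose and 0 fell, none lower at an unadjusted p under 0.05, and of 7 macrophage and monocyte markers 3 fell and 1 rose. None of 4 erythroid markers was called by limma, and 0 had an unadjusted p under 0.05. Fewer dividing cells and less RNA of these genes per cell cannot be told apart in bulk samples, and the part of the T cell and precursor markers in the falls described next was not tested.

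Summed over the 50 members, the signal was 24842 and 25411 in NKT-modulated DC, against 38913 and 42917 in immature DC. The promoters of members below were taken from RefSeq on build GRCm38.p6, 250 bases before to 50 bases after an annotated start of the gene, each on the gene's own strand. The Tk1 and Mcm7 genes extend upstream past the start used, to chr11:117826087 and chr5:138172111, both inside the windows shown. The E2F words TTCCCGC and TTGGCGC and TTCGCGC and TTGCCGC and the CCAAT box CCAAT were searched on both strands, where E2F words may overlap each other or a CCAAT box, and capitals mark the matches. The windows were chosen to show falls with E2F words (Mcm7, Mcm6, Prim1), the steepest fall of all with neither word (Tk1), and E2F words in a member that was not called (Rfc3). They were not chosen by steepness alone. Rpa1, not shown, changed by -1.14 with no E2F word in its window, and Mcm6 by -0.87. They are chr5:138171834-138172133 on the minus strand for Mcm7, which has another annotated start, chr1:128359656-128359955 on the minus strand for Mcm6, chr10:128014965-128015264 on the plus strand for Prim1, chr11:117825965-117826264 on the minus strand for Tk1 and chr5:151651159-151651458 on the minus strand for Rfc3.
Mcm7: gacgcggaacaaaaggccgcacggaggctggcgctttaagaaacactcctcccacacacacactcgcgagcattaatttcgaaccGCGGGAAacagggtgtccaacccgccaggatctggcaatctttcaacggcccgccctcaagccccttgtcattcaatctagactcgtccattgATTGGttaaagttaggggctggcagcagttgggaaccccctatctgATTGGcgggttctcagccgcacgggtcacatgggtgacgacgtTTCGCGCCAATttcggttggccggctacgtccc
Mcm6: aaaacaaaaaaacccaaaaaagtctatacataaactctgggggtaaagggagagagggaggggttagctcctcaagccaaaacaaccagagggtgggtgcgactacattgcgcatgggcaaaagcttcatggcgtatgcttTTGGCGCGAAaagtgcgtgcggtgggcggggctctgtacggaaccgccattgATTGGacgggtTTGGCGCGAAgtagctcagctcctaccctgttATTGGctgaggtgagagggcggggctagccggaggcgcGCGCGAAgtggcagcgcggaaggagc
Prim1: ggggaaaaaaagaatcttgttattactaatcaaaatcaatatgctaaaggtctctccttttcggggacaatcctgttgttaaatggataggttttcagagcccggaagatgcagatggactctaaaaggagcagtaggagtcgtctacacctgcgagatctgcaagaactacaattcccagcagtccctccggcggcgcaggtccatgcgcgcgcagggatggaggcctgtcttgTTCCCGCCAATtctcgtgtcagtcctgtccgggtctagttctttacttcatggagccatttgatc
Tk1: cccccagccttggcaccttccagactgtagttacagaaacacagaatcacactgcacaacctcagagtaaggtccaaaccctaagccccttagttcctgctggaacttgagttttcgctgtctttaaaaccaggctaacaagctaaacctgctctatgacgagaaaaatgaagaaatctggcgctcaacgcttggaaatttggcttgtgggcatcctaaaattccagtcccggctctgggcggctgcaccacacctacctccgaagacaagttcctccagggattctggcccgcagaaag
Rfc3: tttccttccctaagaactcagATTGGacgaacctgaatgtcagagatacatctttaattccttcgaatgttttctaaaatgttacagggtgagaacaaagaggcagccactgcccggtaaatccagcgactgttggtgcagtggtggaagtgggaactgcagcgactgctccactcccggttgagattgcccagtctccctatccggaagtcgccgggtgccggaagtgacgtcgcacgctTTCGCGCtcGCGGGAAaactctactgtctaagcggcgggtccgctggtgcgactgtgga
The Mcm7 and Prim1 windows each hold an E2F word that overlaps a CCAAT box.

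A promoter was at hand for 43 of the measured members. An E2F word stood in 25 of these 43 promoters (58.1%), against 17.2% of 9887 measured genes with a promoter and 10.9% of all 27025 genes of the table. It stood in 13 of 19 members that fell (68.4%) and in 12 of 24 that were not called (50%). A CCAAT box stood in 24 of 43 members (55.8%), against 42.3% of measured genes. The TATA word TATAAA stood in 3 of 43 members (6.98%), against 11.9% of measured genes. These shares describe letters in a window and were not tested; a match is not a binding site, and no match says only that the letters are not in that window.

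The licensing genes, which load the helicase, held the most falls. Of 12 members here 9 fell and 0 rose (10 lower and 0 higher at an unadjusted p under 0.05), and the median change was -0.86. All 6 subunits of the MCM2 to MCM7 helicase fell, to between 40.1% and 58.3% of the immature level as fitted after normalization on the scale of signal plus 16. With NKT-modulated replicate 1 or 2 left out, 3 and 3 of the 6 were called, and with immature replicate 1 or 2 left out, 4 and 2. The licensing count of 9 was then 5, 5, 5 and 4, in the same order. Mcm7 had 736 and 769.5 in NKT-modulated DC, against 1919 and 2182 in immature DC. Both NKT-modulated arrays were under both immature arrays by a wide gap, and the change of -1.32 ± 0.09 had the smallest adjusted p of the members (7.16e-04 by limma). The other subunits had smaller changes. Mcm4 had 1167 and 944 in NKT-modulated DC, against 1748 and 2973 in immature DC, a change of -1.04 ± 0.21 (adjusted p = 0.0296). The immature arrays differed from each other more than the NKT-modulated ones. The NKT-modulated arrays lay below the immature ones without overlap, as in 32.5% of all genes. Mcm6 had 516 and 631 in NKT-modulated DC, against 1011 and 1365 in immature DC (-0.87 ± 0.15, adjusted p = 0.0169). Mcm3 had 823 and 819 in NKT-modulated DC, against 1529.98 and 1678 in immature DC (-0.84 ± 0.09, adjusted p = 0.00293). The groups did not overlap in either gene, again as in 32.5% of all genes. The Mcm3 replicates lay close together, while the immature Mcm6 arrays differed about as much as the gap between the groups. Mcm2 had 425 and 333 in NKT-modulated DC, against 733 and 763 in immature DC (-0.78 ± 0.14, adjusted p = 0.0218), and Mcm5 had 163 and 173 in NKT-modulated DC, against 319.7 and 381 in immature DC (-0.78 ± 0.16, adjusted p = 0.0299). The 6 genes had 16 probe sets between them, of which 13 were called lower. Those not called were all of Mcm3, with changes of 0.97, -0.23 and -0.10 (adjusted p = 0.283, 0.518 and 0.869 by limma). The call of Mcm3 was lost with the mean over its probe sets.

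The loading factors and their inhibitor fell as well. Gmnn encodes geminin, which binds CDT1 and blocks a new round of licensing. It had 183 and 245 in NKT-modulated DC, against 666 and 650.3 in immature DC, so that the highest NKT-modulated array was far under the lowest immature one (-1.37 ± 0.19, adjusted p = 0.00732). Cdt1, the licensing factor that geminin inhibits, had 689 and 661 in NKT-modulated DC, against 1318 and 1462 in immature DC (-0.89 ± 0.09, adjusted p = 0.00270). Cdc6, the ATPase that works with it, had 75.5 and 90.3 in NKT-modulated DC, against 194 and 279.8 in immature DC. For both genes the NKT-modulated arrays lay below the immature ones without overlap, as in 32.5% of all genes. Cdc6 changed by -1.18 ± 0.24 (adjusted p = 0.0283). None of the 3 members that are subunits of the origin recognition complex was called, and 1, Orc6, was lower at an unadjusted p under 0.05. Orc6 had a change of -0.44 ± 0.15 (adjusted p = 0.123) and Orc1 of -0.41 ± 0.27 (adjusted p = 0.430). Orc2 had 301 and 358 in NKT-modulated DC, against 289 and 383 in immature DC. Its groups overlapped, and its change of 0.17 ± 0.16 (adjusted p = 0.598) was -0.019 without further normalization.

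**Figure D2:**
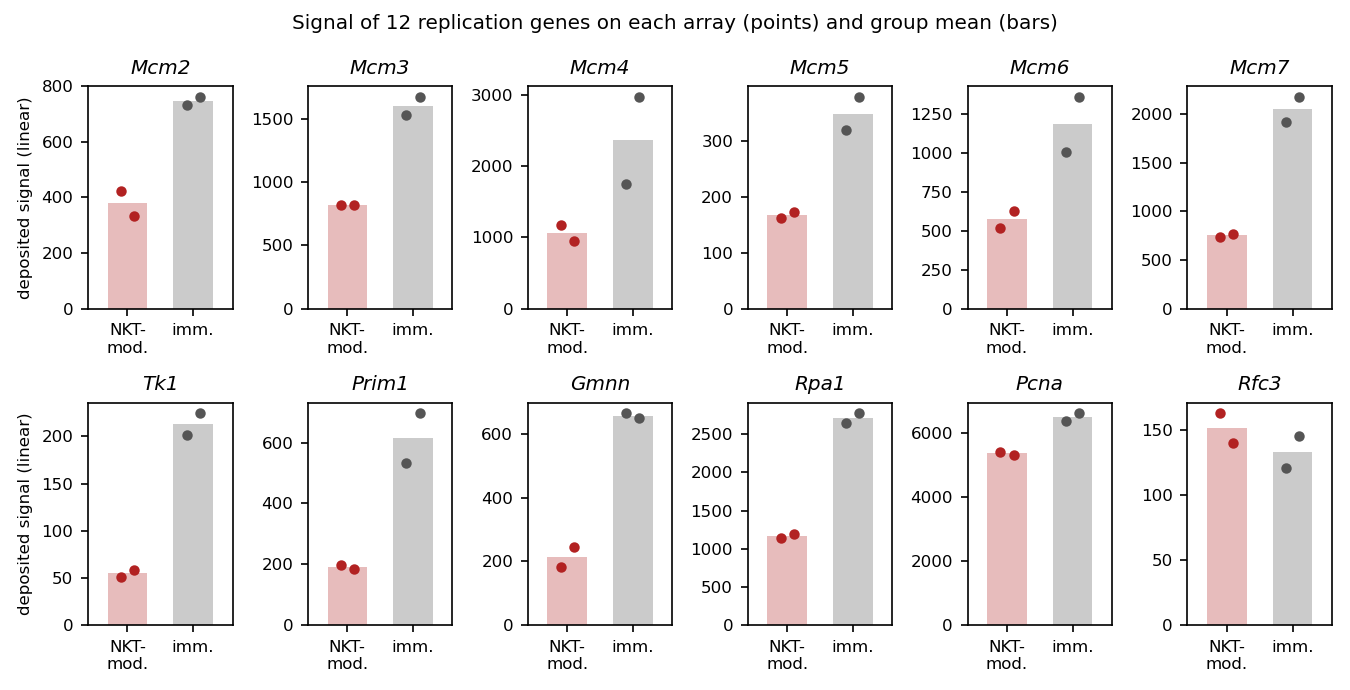
Deposited signal (vertical axes, linear intensity, starting at 0) of 12 members on the 2 NKT-modulated and 2 immature DC arrays, with 1 point per array and a bar at the group mean. Each panel has its own scale. The groups of Mcm2 to Mcm7, Tk1, Prim1, Gmnn and Rpa1 do not overlap. After normalization, both NKT-modulated arrays lay below both immature arrays in 32.5% of all genes. The immature arrays of Mcm4 (1748 and 2973) and Mcm6 (1011 and 1365) lie far from each other. Pcna separates by a small part of its signal (5422 and 5326 against 6385 and 6626), and the Rfc3 groups overlap on this scale.

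None of the genes that activate the loaded helicase was called in the main fit. Of 5 measured, 0 fell and 0 rose by limma at an adjusted p under 0.05, although 4 were lower and 0 higher at an unadjusted p under 0.05, and the median change was -0.48. With a pseudocount of 1, median scaling or the mean over probe sets 1 was lower. Without further normalization or with a mean signal of at least 100, 2 were lower. With a pseudocount of 64, cyclic loess or no trend 0 were lower. Gins1, a subunit of the GINS complex, had 62.0 and 77.6 in NKT-modulated DC, against 151 and 166 in immature DC (-0.91 ± 0.24, adjusted p = 0.0670). Dbf4, the regulatory subunit of the CDC7 kinase, had 330.2 and 268 in NKT-modulated DC, against 475 and 563 in immature DC (-0.57 ± 0.14, adjusted p = 0.0586). In both genes each NKT-modulated array was under each immature array, as in 32.5% of all genes, with adjusted p just above the threshold. Cdc7, the kinase itself, had 246 and 309 in NKT-modulated DC, against 431 and 474 in immature DC (-0.48 ± 0.16, adjusted p = 0.132). Mcm10, which helps the helicase start to unwind, had 132 and 144 in NKT-modulated DC, against 219.97 and 240.3 in immature DC (-0.48 ± 0.18, adjusted p = 0.171). The NKT-modulated arrays lay below the immature ones in both, again as in 32.5% of all genes. Cdc45, a part of the moving helicase, had 115 and 122 in NKT-modulated DC, against 155 and 156 in immature DC, and a change of -0.19 ± 0.20 (adjusted p = 0.631).

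Among the polymerases and primase, 2 of 9 measured members fell and 0 rose (3 lower and 0 higher at an unadjusted p under 0.05), and the median was -0.28. Prim1 is the catalytic subunit of primase, which lays the RNA primers. It had 199 and 183 in NKT-modulated DC, against 532 and 697 in immature DC. The NKT-modulated arrays sat close together and far under the immature ones. The fitted level, normalized and on the scale of signal plus 16, was 38.0% of the immature one, a change of -1.39 ± 0.14 (adjusted p = 0.00270). Prim1 was called with any array left out, while Pole2 lost its call without NKT-modulated replicate 2, immature replicate 1 or immature replicate 2. Prim2, the large primase subunit, had a change of -0.21 ± 0.19 (adjusted p = 0.557). Pole2, the second subunit of the leading-strand polymerase epsilon, had 223 and 172 in NKT-modulated DC, against 413 and 453 in immature DC (-0.87 ± 0.16, adjusted p = 0.0232). Pole, its catalytic subunit, had 79.6 and 20.3 in NKT-modulated DC, against 88.0 and 113 in immature DC. The NKT-modulated arrays disagreed with each other, and the change of -0.90 ± 0.46 was not called (adjusted p = 0.296). Pold1, the catalytic subunit of the lagging-strand polymerase delta, had a change of -0.85 ± 0.22 (adjusted p = 0.0641), and Pold2, its accessory subunit, of -0.19 ± 0.17. Pola1 and Pola2, of the polymerase that extends the primers, had changes of -0.28 ± 0.19 and -0.01 ± 0.18. Pold3, another subunit of polymerase delta, had 492 and 313 in NKT-modulated DC, against 403 and 456 in immature DC. Its groups overlapped, and its change of 0.09 ± 0.21 (adjusted p = 0.852) was -0.21 without NKT-modulated replicate 1 and -0.12 without further normalization.

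The clamp, clamp loader, RPA and Okazaki fragment genes were split. Of 11 measured, 3 fell and 0 rose (6 lower and 0 higher at an unadjusted p under 0.05), and the median was -0.33. Rpa1, the large subunit of the protein that covers single-stranded DNA, had 1135 and 1196 in NKT-modulated DC, against 2645 and 2777 in immature DC. The replicates of each group agreed closely and the groups were far apart (-1.14 ± 0.09, adjusted p = 0.00112). Its partners Rpa2 and Rpa3 had changes of -0.32 ± 0.15 and -0.43 ± 0.19 (adjusted p = 0.250 and 0.224). Rfc1, the large subunit of the clamp loader, had 268 and 327 in NKT-modulated DC, against 639 and 580.1 in immature DC (-0.81 ± 0.18, adjusted p = 0.0366). The groups did not overlap, with the NKT-modulated arrays lower, as in 32.5% of all genes. Of the 3 falls only 1 was called with any of the arrays left out, Rpa1 each time. Rfc4, a smaller subunit, had 157 and 177 in NKT-modulated DC, against 255 and 371 in immature DC (-0.61 ± 0.20, adjusted p = 0.111). Its NKT-modulated arrays lay below the immature ones, as in 32.5% of all genes, but its immature arrays differed from each other. Rfc5 and Rfc2, also small subunits, had changes of -0.53 ± 0.14 and -0.24 ± 0.15 (adjusted p = 0.0618 and 0.407). Rfc3, another small subunit, had 163 and 139.6 in NKT-modulated DC, against 121 and 145 in immature DC. These signals overlap as deposited, and after normalization both NKT-modulated arrays lay above both immature arrays.

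Pcna, the sliding clamp and a widely used marker of dividing cells, changed little in proportion. It had 5422 and 5326 in NKT-modulated DC, against 6385 and 6626 in immature DC. Neither group's arrays reached the other's, with the NKT-modulated ones lower, as in 32.5% of all genes. The fitted level, normalized and on the scale of signal plus 16, was 80.0% of the immature one, a change of -0.32 ± 0.08 (adjusted p = 0.0467). That call was lost in 9 of 14 alternatives, each array left out in turn among them, with adjusted p up to 0.567. Fen1, the nuclease that trims Okazaki fragments, had 2050.5 and 2327 in NKT-modulated DC, against 2845 and 1913 in immature DC (-0.04 ± 0.24, adjusted p = 0.947). Its immature arrays stood on either side of the NKT-modulated ones. Lig1, the ligase that joins the fragments, had a change of -0.33 ± 0.14 (adjusted p = 0.192).

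**Figure D3:**
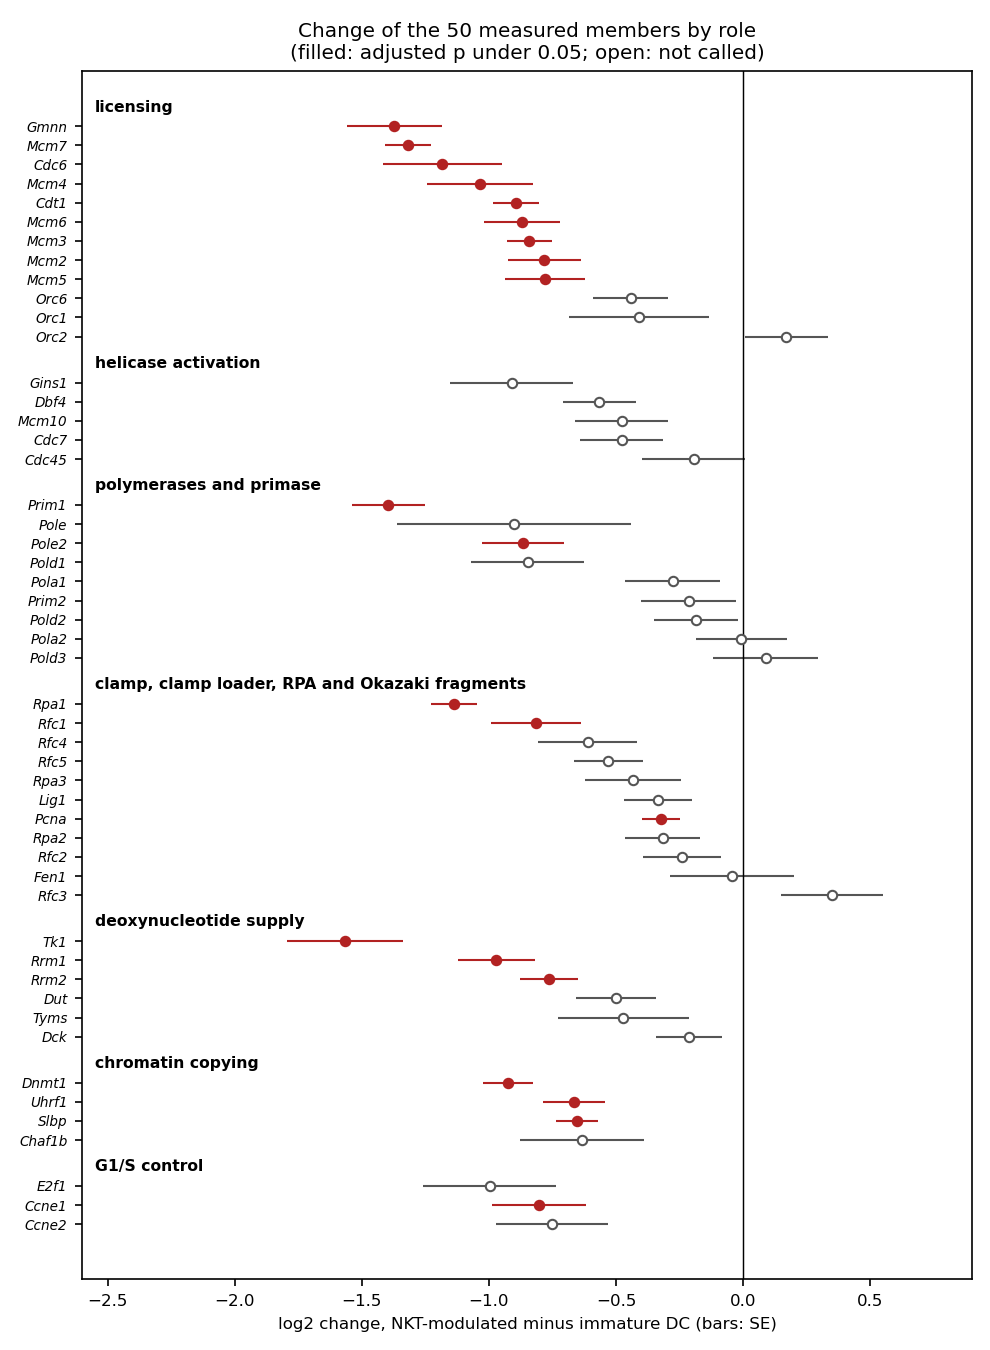
Log2 change (horizontal axis, NKT-modulated DC minus immature DC) of the 50 measured members, grouped by role from licensing to G1/S control, with bars of 1 SE. Filled points mark the 21 members with an adjusted p under 0.05, all of them left of 0. The points right of 0 are Orc2, Pold3 and Rfc3, none of them filled.

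Of 6 measured genes of deoxynucleotide supply, 3 fell and 0 rose (4 lower and 0 higher at an unadjusted p under 0.05), and the median was -0.63. Tk1, the cytosolic thymidine kinase that salvages thymidine in S phase, had 51.0 and 58.9 in NKT-modulated DC, against 202 and 225 in immature DC. Both immature arrays were far above both NKT-modulated ones, and the fitted level after normalization, on the scale of signal plus 16, was 33.8% of the immature one (-1.56 ± 0.23, adjusted p = 0.00938). Rrm1 and Rrm2 encode the large and small subunits of ribonucleotide reductase, which makes deoxynucleotides from ribonucleotides. Rrm1 had 314 and 363 in NKT-modulated DC, against 791 and 742 in immature DC (-0.97 ± 0.15, adjusted p = 0.0119). Rrm2 had 381 and 391 in NKT-modulated DC, against 744 and 776 in immature DC (-0.76 ± 0.11, adjusted p = 0.0104). The groups of both subunits lay apart by more than their own spread. The 3 falls became 1 and 2 without NKT-modulated replicate 1 and 2, and 0 and 2 without immature replicate 1 and 2. Dut, which removes dUTP, and Dck, a salvage kinase for deoxycytidine, had changes of -0.50 ± 0.16 and -0.21 ± 0.13 (adjusted p = 0.105 and 0.378). Tyms, thymidylate synthase, was dim on all 3 of its probe sets. Its brightest had 27.7 and 21.6 in NKT-modulated DC, against 36.6 and 45.3 in immature DC (-0.47 ± 0.26, adjusted p = 0.326), and the mean over its probe sets gave 0.12.

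Of 4 measured genes that copy chromatin with the DNA, 3 fell and 0 rose (4 lower and 0 higher at an unadjusted p under 0.05), and the median was -0.66. Dnmt1, the maintenance DNA methyltransferase, had 488 and 474 in NKT-modulated DC, against 979 and 1103 in immature DC (-0.92 ± 0.10, adjusted p = 0.00309). Uhrf1, which brings DNMT1 to newly copied DNA, had 354 and 335 in NKT-modulated DC, against 627 and 649.9 in immature DC (-0.66 ± 0.12, adjusted p = 0.0218). Slbp, which binds the stem-loop of histone mRNAs, had 1214 and 1150.2 in NKT-modulated DC, against 1883 and 2089 in immature DC (-0.65 ± 0.08, adjusted p = 0.00569). The replicates of all 3 agreed closely. Their groups did not overlap, with the NKT-modulated arrays lower, as in 32.5% of all genes. Chaf1b, a subunit of the chromatin assembly factor, had a change of -0.63 ± 0.24 (adjusted p = 0.172). The G1/S regulators among the members were E2f1, Ccne1 and Ccne2, of which 1 fell and 0 rose (3 lower and 0 higher at an unadjusted p under 0.05). Ccne1, a cyclin that drives entry into S phase, had 154 and 132 in NKT-modulated DC, against 312 and 293 in immature DC (-0.80 ± 0.18, adjusted p = 0.0442). The call of Ccne1 was lost with each array left out in turn. Ccne2, its paralog, had 77.1 and 64.8 in NKT-modulated DC, against 139 and 146 in immature DC (-0.75 ± 0.22, adjusted p = 0.0889). E2f1, an activating E2F factor, had 105 and 165 in NKT-modulated DC, against 286 and 353 in immature DC (-0.997 ± 0.26, adjusted p = 0.0641). Each of these genes had both NKT-modulated arrays under both immature arrays, as had 32.5% of all genes.

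Other probe sets of the same genes gave a check on the measure. The 50 members had 91 probe sets, and 30 members had several. Of the 41 that were not the brightest, 14 were called lower and 0 higher, against 4.18% lower of 7987 such probe sets of all genes. A negative change was seen for 32 of the 41, and for 6827 of all 12393 genes by their brightest probe set. All 14 that were called were among the 27 with a mean signal of at least 100, and the 14 dimmer ones held no call. Of 14 members that fell and had several probe sets, 11 had another one called lower. E2f1 was called only by its dimmer probe set, which had 64.6 and 63.7 in NKT-modulated DC, against 227 and 262 in immature DC (-1.56 ± 0.20, adjusted p = 0.00630). Probe sets of 8 members pointed in different directions, namely Cdc7, Dbf4, Mcm10, Mcm3, Orc2, Rfc3, Slbp and Tyms. One Mcm3 probe set had 423 and 388 in NKT-modulated DC, against 119 and 444 in immature DC. Its immature arrays differed widely and its change of 0.97 ± 0.48 was not called (adjusted p = 0.283), while another Mcm3 probe set was lower at -0.75 ± 0.16 (adjusted p = 0.0355). For Cdc7, Dbf4, Mcm10, Slbp and Tyms the other probe sets had positive changes at low signal, and none of these was called.

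**Figure D4:**
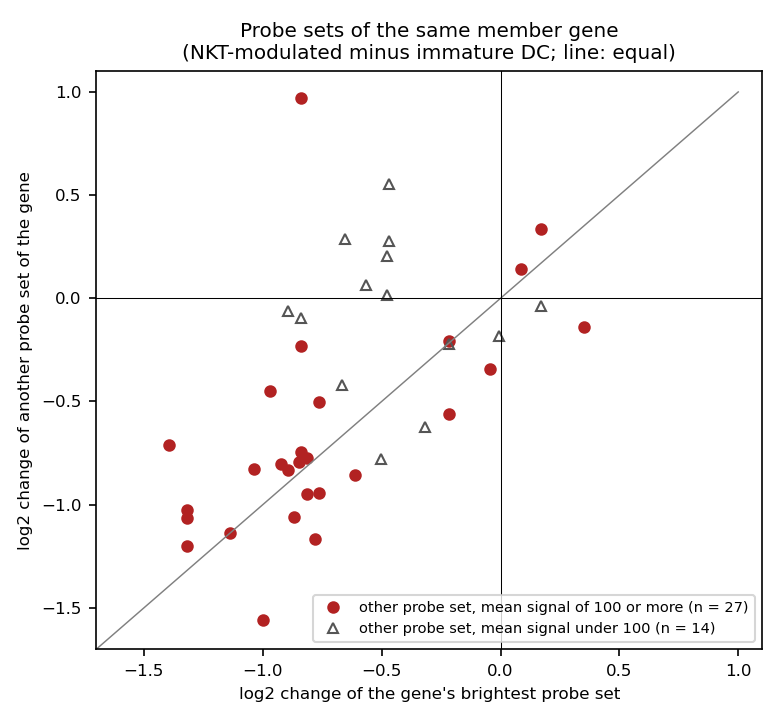
Log2 change of each further probe set of a member (vertical axis) against that of the member's brightest probe set (horizontal axis), NKT-modulated DC minus immature DC, with 27 probe sets of mean signal 100 or more and 14 dimmer ones marked apart. Of the brighter ones 24 have a negative change, and of the dimmer ones 8.

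Signal and precision differed between called and other members, which follows in part from the calling itself. A call needs a change that is large beside its SE, and the intensity trend of the fit ties the SE to the signal. The parts of probe set and RNA amount in the difference were not tested. The 21 that fell had a median mean signal of 563.6 and a median SE of 0.14, and the 29 not called had 295.9 and 0.19. Split at the median signal of 348.6, the brighter 25 members held 16 falls and the median was -0.76, and the dimmer 25 held 5 with a median of -0.53. Of those not called, 6 had an adjusted p under 0.1 and 13 an unadjusted p under 0.05. Mcm7 was called in all 14 alternatives, and Cdt1, Prim1, Rpa1 and Dnmt1 in all but the one that asked for an adjusted p under 0.001. The members lay on 16 chromosomes, with at most 11 on any of them.

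Further genes of the same pathways were followed for comparison, 115 measured in 6 lists. Of these 38 fell (33.0%) and 5 rose (4.35%), against a background of 6.9% and 5.99% of all genes. The mitosis list alone held 17 of the falls. Without NKT-modulated replicate 1, NKT-modulated replicate 2, immature replicate 1 and immature replicate 2 the falls numbered 16, 22, 19 and 19. The other fork and origin genes, 22 measured, included 6 that fell and 1 that rose, and their median was -0.38. Dna2, a nuclease and helicase of Okazaki fragment processing, had 485 and 409 in NKT-modulated DC, against 1715 and 1719.7 in immature DC (-1.76 ± 0.12, adjusted p = 7.40e-04). Timeless, which protects the fork, had 92.6 and 141 in NKT-modulated DC, against 491 and 541 in immature DC (-1.86 ± 0.24, adjusted p = 0.00587). Both changes were larger than that of any member. Topbp1, which takes part in origin firing, fell by 0.99 ± 0.10 on the log2 scale and Top2a, a topoisomerase that untangles copied DNA, by 0.69 ± 0.09. The 6 falls became 3 without NKT-modulated replicate 1, 5 without NKT-modulated replicate 2 and 4 without either immature replicate. Top1, the topoisomerase that relaxes supercoils, had 3502 and 3501 in NKT-modulated DC, against 2339 and 2788 in immature DC, and rose by 0.47 ± 0.08 (adjusted p = 0.0201), a call lost without NKT-modulated replicate 1, NKT-modulated replicate 2 or immature replicate 1.

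The other nucleotide synthesis genes had changes of both signs. Among the 29 measured there were 6 falls (20.7%) and 2 rises (6.90%), against 6.9% and 5.99% of all genes. The median was -0.02, beside -0.04 for all genes. Samhd1, which breaks down deoxynucleotides, had 7245 and 6931 in NKT-modulated DC, against 3013 and 3405 in immature DC. The NKT-modulated arrays were far above the immature ones (1.13 ± 0.07, adjusted p = 6.17e-04). Prps1, which makes the ribose phosphate donor of nucleotide synthesis, had 2284 and 2107 in NKT-modulated DC, against 981 and 1248 in immature DC (1.06 ± 0.10, adjusted p = 0.00183). Paics, an enzyme of purine synthesis, fell by 0.67 ± 0.08 and Dtymk, which phosphorylates dTMP, by 0.71 ± 0.09 on the log2 scale. The 6 falls were 2 and 2 without NKT-modulated replicate 1 and 2, and 3 and 3 without immature replicate 1 and 2. Of 10 other chromatin assembly genes, 2 fell and 0 rose by limma, against 6.9% and 5.99% of all genes. At an unadjusted p under 0.05, 5 were lower and 2 higher, against 16.6% and 11.5% of all genes. Hells, a chromatin remodeller, fell by 1.17 ± 0.16 and Hmgb2, a chromatin protein of dividing cells, by 0.65 ± 0.09.

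Cell cycle regulators beside the members were mixed too. Among 19 E2F, RB, cyclin and CDK genes there were 7 falls and 1 rise, against 6.9% and 5.99% of all genes, and the median was -0.46. The falls numbered 3 without NKT-modulated replicate 1 and 4 without each other array. The D-type cyclins, which drive G1, went different ways. Ccnd1 had 523 and 659 in NKT-modulated DC, against 1727 and 1561 in immature DC (-1.33 ± 0.16, adjusted p = 0.00515), and Ccnd3 fell by 0.93 ± 0.12. Ccnd2 had 12139 and 10842 in NKT-modulated DC, against 6545 and 6840.2 in immature DC, and rose by 0.70 ± 0.07 (adjusted p = 0.00280). Cks1b, a CDK-binding subunit, fell by 0.63 ± 0.08. Of 7 CDK inhibitors, 0 fell and 1 rose by limma, against 6.9% and 5.99% of all genes. At an unadjusted p under 0.05, 2 were lower and 2 higher, against 16.6% and 11.5% of all genes. Cdkn1a, which encodes the inhibitor p21, had 10761 and 9709 in NKT-modulated DC, against 6783 and 6100.4 in immature DC (0.62 ± 0.10, adjusted p = 0.0115), a call lost without either NKT-modulated array (adjusted p = 0.0847 and 0.0665). Cdkn1b, which encodes p27, had 340.3 and 265 in NKT-modulated DC, against 432 and 515 in immature DC (-0.41 ± 0.15, adjusted p = 0.161).

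Most mitosis genes, which act after replication, fell too. Of 28 measured, 17 fell and 0 rose, against 6.9% and 5.99% of all genes, and the median was -0.86. At an unadjusted p under 0.05, 23 were lower and 0 higher, against 16.6% and 11.5% of all genes. The falls numbered 7 and 10 without NKT-modulated replicate 1 and 2, and 7 and 6 without immature replicate 1 and 2. Cdk1, the kinase that starts mitosis, had 413 and 407 in NKT-modulated DC, against 799.6 and 883 in immature DC (-0.83 ± 0.11, adjusted p = 0.00559). Ccnb2, a cyclin that binds it, fell by 0.96 ± 0.11, Kif23, a motor of cell division, by 1.18 ± 0.16 and Incenp, a part of the chromosomal passenger complex, by 0.86 ± 0.10. Mki67, a common marker of dividing cells, had 1458 and 1602 in NKT-modulated DC, against 1281 and 1611 in immature DC. Its signals overlapped as deposited. After normalization both NKT-modulated arrays of Mki67 lay above both immature arrays, as in 23.8% of all genes, unlike the other measured mitosis genes. Its change was 0.19 ± 0.10 (adjusted p = 0.335). The same NKT-modulated arrays carried the higher T and NKT cell markers given above. Of 10 precursor markers on them, Cd34 and Kit were lower, Gfi1 was higher and 7 were not called.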

How the data were processed

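The deposited value table holds linear intensities, 1 signal for each of 22690 probe sets on 4 arrays. The authors analysed the images with GCOS, per the submitters' processing notes. Version, summary algorithm and scaling were not given in the sources used here. For labelling, the design text has a kit of a single cycle and the labels an assay of a pair of cycles. The design text also speaks of triplicates, while 2 arrays per group were analysed here, and the array type it names has more probe sets than the table.

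Probe sets were named from the platform annotation, which can be old, and 20351 symbols were updated by gene ID through RefSeq's gene table (GRCm38.p6). Of 22626 probe sets without controls, 20380 had 1 symbol, 691 had several and 1555 were unnamed here. Signals plus a pseudocount of 16 were log2 transformed, quantile normalized and fitted in R 4.3.3 by limma 3.58.1, where eBayes used an intensity trend after lmFit. There were 2 residual and 4.13 prior degrees of freedom. Benjamini-Hochberg adjustment ran over all 22626 probe sets, with a threshold of 0.05. Genes were represented by their brightest probe set. The number of arrays limits the precision. The fit was tested on simulated data with known changes.

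Members and lists were chosen with earlier results of these data known. Every member could be named. Array values are given at least for the 3 largest changes of each role, for members whose change was positive or whose probe sets disagreed in direction, and in every case for a few genes (Pcna, Mcm2, Mki67, Cdkn1a, Cdkn1b). Those of Mcm4, Mcm5, Mcm6, Cdt1, Cdc45 and Fen1 were added after their values were seen. From the other lists up to 4 called genes with the smallest adjusted p were named, and called genes that went against the majority. Alternatives were pseudocounts of 1 and 64, no further normalization, cyclic loess, median scaling, no trend, a mean signal of at least 100, the mean over probe sets, an adjusted p under 0.001, after the threshold of the design text, each array left out, and adjustment over genes only.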

Additional observations from a re-analysis of the deposited data

How the results depend on the processing

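The count of 21 members lower in NKT-modulated DC was 8 without the intensity trend, 1 at an adjusted p under 0.001 and between 9 and 12 with each array left out. In each of these alternatives fewer of all genes were lower too, 2.19% without the trend and 0.178% at 0.001, against 6.9%. The other 8 alternatives gave 20 to 29, the highest among 47 members with a mean signal of at least 100, where 16.2% of genes were lower. In 14 of 14 alternatives 0 members were higher. The median change of the members, -0.64, was -0.69 and -0.52 with pseudocounts of 1 and 64, -0.80 without further normalization, -0.59 after cyclic loess, -0.62 after median scaling and -0.57 with the mean over probe sets. Of the other pathway genes, 38 lower became 13 without the trend, 1 at 0.001 and 16 to 22 with arrays left out. The 5 higher became 8 with a pseudocount of 1, 9 after median scaling, 2 without the trend, 8 with the signal minimum, 8 with the mean over probe sets, 1 at 0.001 and 3 to 5 with arrays left out. Of all called genes 53.5% were lower, against 64.8% without further normalization, 46.0% after cyclic loess and 43.8% after median scaling, which moved the median of all genes to 0.06. Among the 51 named genes the sign changed for Orc2, Pold3 and Tyms. Without further normalization Orc2 was -0.019 and Pold3 -0.12. Pold3 was -0.21 without NKT-modulated replicate 1, and up to 0.38 with another array left out. Tyms was 0.12 with the mean over probe sets. Members outside the named genes changed sign too. Of 50 members 47 were negative in the main fit, and 49 without further normalization. After cyclic loess 45 were negative, after median scaling 46, and without immature replicate 2 45. Over 51 named genes and 14 alternatives, 585 results kept their direction and side of the threshold, 108 lost the call, 15 gained one and 4 changed sign. The causes were not tested, except that fewer arrays leave fewer degrees of freedom. Adjustment over genes only, chosen after seeing the data, gave 21 members. No paired analysis was possible because the labels give the groups no shared replicate numbers. Calls among the 41 further probe sets of members lay in the 27 with a mean signal of at least 100.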

Other observations

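The word TTTGAA, the core of the CHR element of mitotic promoters, stood in 16 of 23 mitosis genes with a promoter (69.6%), in 8 of 43 members (18.6%) and in 15.4% of measured genes. An E2F word stood in 3 of the 23 mitosis genes (13.0%), in 25 of 43 members (58.1%) and in 17.2% of measured genes. A CCAAT box stood in 17 of the 23 (73.9%). Both lists had a negative median change, -0.86 for the mitosis genes and -0.64 for the members. These shares were not tested.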
